A study of Mus musculus with 12 samples.

Results

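The 10 genes described here are Tnfrsf13c, Tnfrsf13b, Cd40, Traf1, Traf2, Traf3, Map3k14, Nfkb2, Relb and Birc3, the receptors through which BAFF and CD40 ligand act on B cells and the genes of the noncanonical NF-κB pathway behind them. They were chosen by symbol and not by a threshold on their values, though earlier results of these data were known. They are 10 of the 55536 genes in the count table. Gene positions below are those of GENCODE M21 on GRCm38. RNA was sequenced from CD43-depleted splenic B cells of 6 C57BL/6 mice, and the 2 cultures of each mouse gave 12 libraries. Control and Pdap1-deficient mice alike carry a heterozygous Cre allele that acts in cells of the B lineage. The Pdap1-deficient mice (Pdap1F/F, labelled PDAP1 KO) carry floxed Pdap1 alleles as well, which Cre deletes in these cells. Cells of 3 mice per genotype were cultured for 48 h either with LPS and IL-4 (LPS-IL-4, used for switching to IgG1) or with LPS, BAFF and TGFβ (LPS-BAFF-TGFβ, for switching to IgG2b). BAFF was thus given only together with TGFβ and in place of IL-4, and the parts of these agents in a difference between the cultures cannot be told apart. The labels also give CH12, a B cell lymphoma line, as the cell line of every sample, whereas the series description speaks of mice and splenocyte cultures. The labels used here give no age of the mice.

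BAFF is a survival factor for mature B cells and acts through BAFF-R, the product of Tnfrsf13c, and TACI, the product of Tnfrsf13b. In resting cells a complex of TRAF3, TRAF2 and the cIAP ubiquitin ligases, one of which is encoded by Birc3, keeps the kinase NIK (Map3k14) at a low level by marking it for degradation. Ligation of BAFF-R or CD40 removes TRAF3 from this complex, NIK accumulates, and the p100 product of Nfkb2 is processed to p52, which enters the nucleus with RelB. These steps act on proteins, and the counts analysed here measure mRNA. In a bulk culture, fewer cells of a type and less RNA per cell cannot be told apart.

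Since Nfkb2, Birc3 and Traf1 are themselves known NF-κB targets, the promoters of the 10 genes were searched for the NF-κB binding motif. RefSeq promoters on GRCm38.p6, each 250 bases before and 50 after an annotated start, were at hand for 8 of the 10 genes, with 3 starts for Nfkb2 and 10 windows in all. The κB consensus was matched on both strands, and it was present in 8.46% of all 32851 promoter windows. Nfkb2 held matches at each of its 3 starts and Traf3 held 1 match, which ended at the base before the start. No match to these letters was found in the windows of Birc3, Map3k14, Tnfrsf13b, Tnfrsf13c, Traf1 or Traf2. The stretches that hold the matches in Nfkb2 are shown at 30 bases each, with the matched bases in capitals. In the first, 3 overlapping matches on both strands begin 39 or 38 bases before the most upstream start, and the match of the second begins 11 bases before the same start. The third match, on the minus strand, lies 236 bases before the next start, and the fourth lies in the windows of both downstream starts. In GENCODE M21 the first and second stretch lie within an exon of Nfkb2, the fourth does so for 29 of its 30 bases, and the third lies in no exon of the gene. A match describes these letters and was not tested as a binding site.
Nfkb2, chr19:46304689-46304718, plus strand: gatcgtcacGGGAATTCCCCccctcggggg
Nfkb2, chr19:46304716-46304745, plus strand: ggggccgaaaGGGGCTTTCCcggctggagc
Nfkb2, chr19:46305449-46305478, plus strand: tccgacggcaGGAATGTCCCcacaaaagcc
Nfkb2, chr19:46305695-46305724, plus strand: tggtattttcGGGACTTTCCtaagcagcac

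The 250 bases before the starts of Tnfrsf13c and Tnfrsf13b are shown because these receptor genes rose with LPS-BAFF-TGFβ and held no match, and those of Traf3 because it held a match (in capitals) while its level varied little. None of these 3 stretches overlaps an annotated exon of its gene.
Tnfrsf13c, chr15:82224381-82224630, minus strand: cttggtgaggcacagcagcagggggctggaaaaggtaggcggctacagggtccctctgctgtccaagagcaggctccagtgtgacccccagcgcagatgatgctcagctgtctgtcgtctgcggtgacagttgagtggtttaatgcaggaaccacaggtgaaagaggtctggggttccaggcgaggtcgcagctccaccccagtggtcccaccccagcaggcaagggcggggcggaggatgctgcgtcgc
Tnfrsf13b, chr11:61126505-61126754, plus strand: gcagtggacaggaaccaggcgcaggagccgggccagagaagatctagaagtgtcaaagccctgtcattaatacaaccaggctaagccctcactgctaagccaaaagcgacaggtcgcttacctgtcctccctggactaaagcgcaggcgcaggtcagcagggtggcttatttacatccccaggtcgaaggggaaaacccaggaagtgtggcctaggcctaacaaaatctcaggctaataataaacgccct
Traf3, chr12:111166120-111166369, plus strand: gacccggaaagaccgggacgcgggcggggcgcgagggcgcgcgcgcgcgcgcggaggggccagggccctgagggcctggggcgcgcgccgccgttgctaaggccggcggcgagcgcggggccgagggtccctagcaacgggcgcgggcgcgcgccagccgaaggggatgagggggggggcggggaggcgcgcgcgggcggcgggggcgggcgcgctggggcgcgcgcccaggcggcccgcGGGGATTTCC

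Total counts were between 4579793 and 15869143 in 11 libraries and 69500640 in the LPS-BAFF-TGFβ library of control mouse 1, which is called the deepest library below. Levels are given as CPM, counts scaled to a common library total by TMM over the 12 libraries, and levels of different genes are compared only per kilobase of exon (RPKM). The TMM factor was 0.9075 for the deepest library and 0.9043 for the LPS-BAFF-TGFβ library of Pdap1-deficient mouse 1. The others had factors of 0.9936 to 1.0607. Pdap1, the deleted gene, was at 80.3 to 199 CPM in the 6 control libraries and at 23.0 to 29.9 CPM in the 6 Pdap1-deficient ones, and the highest of these values was that of the deepest library. Of the 5 B cell markers Ms4a1, Cd79a, Cd79b, Cd22 and Pax5, each was detected, 3 (Ms4a1, Cd79b and Cd22) fell with LPS-BAFF-TGFβ in both genotypes and the other two were not called. Ms4a1 was 903 to 1087 CPM with LPS-IL-4 and 464 to 615 CPM with LPS-BAFF-TGFβ. The summed level of 7 myeloid markers was 9.08 to 28.4 CPM in control libraries and reached 312 CPM with LPS-IL-4 and 549 CPM with LPS-BAFF-TGFβ in the cultures of Pdap1-deficient mouse 2, with 37.96 and 80.1 CPM in those of mouse 3. T cell markers summed to at most 20.1 CPM and NK cell markers to at most 4.07 CPM in any library. By their Xist and Y-linked transcripts, 2 control mice and 1 Pdap1-deficient mouse were female. P-values of the genotype comparisons measure the spread between mice. The main tests between the stimulations treated the 2 cultures of a mouse as separate libraries, and fits with the mouse as a block were alternatives.

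Per kilobase of exon, the BAFF receptor genes Tnfrsf13c and Tnfrsf13b had the highest mean levels of the 10 transcripts and Map3k14 the lowest in each group. In control LPS-IL-4 cultures, Tnfrsf13c stood at 135 ± 7.35 RPKM (SD, n = 3) and Tnfrsf13b at 123 ± 1.97 RPKM, followed by Birc3 at 68.9 ± 1.70, Cd40 at 37.7 ± 1.62 and Nfkb2 at 34.8 ± 1.79 RPKM. Traf1 followed at 26.7 ± 1.17, Traf3 at 17.1 ± 0.559, Relb at 12.5 ± 1.30, Traf2 at 11.03 ± 0.845 and Map3k14 at 6.45 ± 0.386 RPKM. Of the neighbours in this order, Cd40 and Nfkb2, and Relb and Traf2, had overlapping values over the libraries. With LPS-BAFF-TGFβ, Tnfrsf13c (206 ± 13.7 RPKM) and Tnfrsf13b (197 ± 13.4 RPKM) again led in control mice, with overlapping values. Nfkb2, at 49.0 ± 11.4 RPKM, stood above Cd40 at 29.8 ± 7.88 RPKM in that group, without overlap. Over the 12 libraries, the coefficient of variation of the CPM was 25.5% for Tnfrsf13b, 25.1% for Nfkb2 and 19.5% for Tnfrsf13c, against 7.23% for Traf1, 6.14% for Traf2 and 5.79% for Traf3. The TRAF adaptor genes therefore had the steadiest levels of the 10.

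**Figure D1:**
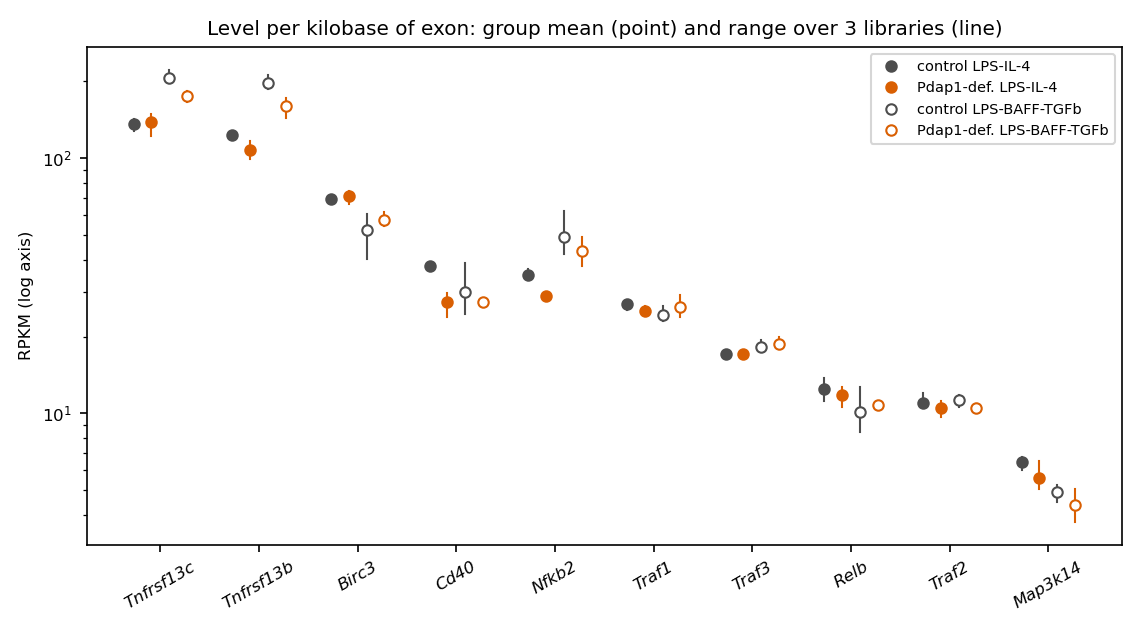
Level of each of the 10 genes in RPKM (log axis), as the mean (point) and the range over 3 libraries (line) of each of the 4 groups, in the order of control LPS-IL-4 cultures. Tnfrsf13c and Tnfrsf13b lie above 100 RPKM in each group mean, and Map3k14 is lowest at 4.36 to 6.45 RPKM.

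The first comparison asked how the 10 genes differed between B cells given LPS-BAFF-TGFβ and cells given LPS-IL-4. In control mice Tnfrsf13c, Tnfrsf13b and Nfkb2 were higher with LPS-BAFF-TGFβ, by 40.9% to 60.5%, and Birc3 was 24.4% lower. In Pdap1-deficient mice the same 3 genes, Tnfrsf13c, Tnfrsf13b and Nfkb2, were higher, by 27.1% to 49.9%. In edgeR's quasi-likelihood test, 3 of the 10 genes passed an adjusted p of 0.05 upward in control mice, where 9.93% of all 15794 genes tested did so, and 1 passed downward, where 8.22% did. In Pdap1-deficient mice 3 passed upward, where 6.64% of all genes did, and 0 downward, where 6.93% did. Of those not called downward there, Birc3 and Map3k14 had an unadjusted p under 0.05. The Wald test of DESeq2 also called 0 of the 10 downward. The share of all genes whose stimulations did not overlap, or that moved the same way in every mouse, was not counted. Such statements on single genes below therefore describe their values and do not stand in for a call.

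Tnfrsf13c (ENSMUSG00000068105, chr15:82221743-82224369, minus strand) encodes BAFF-R, the receptor that mature B cells need for survival. Its level in the control LPS-IL-4 libraries of mice 1, 2 and 3 was 261, 281 and 290.1 CPM, and 411, 401 and 454 CPM in their LPS-BAFF-TGFβ libraries. In Pdap1-deficient mice it was 304, 251 and 292 CPM with LPS-IL-4 and 373, 340.0 and 363 CPM with LPS-BAFF-TGFβ. All 6 mice had more Tnfrsf13c mRNA in the LPS-BAFF-TGFβ culture, and the stimulations did not overlap in either genotype. The log2 fold change was 0.61 ± 0.10 (SE) in control mice (edgeR adjusted p = 0.000685) and 0.35 ± 0.10 in Pdap1-deficient mice (edgeR adjusted p = 0.0342). The rise in control mice was called by each of 16 alternative analyses, and that in Pdap1-deficient mice by 9 of 16. In Pdap1-deficient mice it lost its call without LPS-IL-4 library 2 (0.27, edgeR adjusted p = 0.0908) or 3 (0.36, adjusted p = 0.0855) and without LPS-BAFF-TGFβ library 1 (0.31, adjusted p = 0.159) or 3 (0.33, adjusted p = 0.117). It was also lost without a filter on low counts (0.32, adjusted p = 0.186), with the 6 Pdap1-deficient libraries alone (0.35, adjusted p = 0.0692) and without both libraries of mouse 2 (0.29, adjusted p = 0.0859).

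Tnfrsf13b (ENSMUSG00000010142, chr11:61126755-61149372, plus strand) encodes TACI, a second BAFF receptor, which also binds APRIL. It stood at 346, 354 and 344 CPM in control mice 1, 2 and 3 with LPS-IL-4 and at 600.5, 549 and 526 CPM with LPS-BAFF-TGFβ. In Pdap1-deficient mice the values were 331, 279.8 and 302 CPM with LPS-IL-4 and 489, 408 and 457 CPM with LPS-BAFF-TGFβ. The stimulations were again fully separated, with the 3 control LPS-BAFF-TGFβ libraries highest of the 12. The log2 fold change was 0.68 ± 0.10 in control mice (edgeR adjusted p = 0.000294) and 0.57 ± 0.10 in Pdap1-deficient mice (edgeR adjusted p = 0.00159). Both were called under each of 16 alternatives, with control values between 0.62 and 0.72 and Pdap1-deficient values between 0.50 and 0.64.

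Nfkb2 (ENSMUSG00000025225, chr19:46304320-46312385, plus strand) encodes p100, the precursor of p52. Its level was 152, 159 and 168 CPM in control mice with LPS-IL-4 and 285, 196 and 193 CPM with LPS-BAFF-TGFβ. In Pdap1-deficient mice it was 134, 132 and 129.5 CPM with LPS-IL-4 and 196, 224 and 173 CPM with LPS-BAFF-TGFβ. The gene was higher with LPS-BAFF-TGFβ in 6 of 6 mice, and the highest value was that of the deepest library. The log2 fold change was 0.50 ± 0.14 in control mice (edgeR adjusted p = 0.0259) and 0.58 ± 0.14 in Pdap1-deficient mice (edgeR adjusted p = 0.0135). Without the deepest library the control value was 0.28 (edgeR adjusted p = 0.0734) and without both libraries of control mouse 1 it was 0.25 (adjusted p = 0.205), and the call was also lost without control LPS-IL-4 library 1, 2 or 3 (0.46 to 0.53, adjusted p = 0.109, 0.0874 and 0.0590). In Pdap1-deficient mice it was lost without LPS-IL-4 library 3 (0.57, adjusted p = 0.0524) or LPS-BAFF-TGFβ library 2 (0.49, adjusted p = 0.0582) and without both libraries of mouse 2 (0.47, adjusted p = 0.0944). With the 6 control libraries alone the control value was 0.50 (edgeR adjusted p = 0.0546), and 0.47 with the mouse as a replicate block as well (adjusted p = 0.102). Nfkb2, the gene with κB matches at each of its starts shown above, overlaps Psd (130 to 1683 counts per library) and a noncoding gene on the opposite strand, and the strand setting of the counting was not given in the sources used here.

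Birc3 (ENSMUSG00000032000, chr9:7848699-7873186, minus strand) encodes cIAP2, a ubiquitin ligase of the complex that keeps NIK low. It stood at 353, 347 and 336 CPM in control mice with LPS-IL-4 and at 202, 279.6 and 302 CPM with LPS-BAFF-TGFβ. In Pdap1-deficient mice it stood at 367, 330.4 and 371 CPM and at 282, 272 and 307 CPM. All 6 mice had less Birc3 mRNA with LPS-BAFF-TGFβ, without overlap in either genotype, and the lowest value was that of the deepest library. In control mice the level fell by 0.40 ± 0.13 on the log2 scale (edgeR adjusted p = 0.0447), and in Pdap1-deficient mice the value was -0.31 ± 0.13 (edgeR adjusted p = 0.147). The control call was lost without the deepest library (-0.25, edgeR adjusted p = 0.0958) or both libraries of control mouse 1 (-0.23, adjusted p = 0.202), without LPS-BAFF-TGFβ library 2 (-0.46, adjusted p = 0.0559) and without LPS-IL-4 library 1, 2 or 3 (-0.42 to -0.39, adjusted p = 0.134, 0.119 and 0.0938). With the 6 control libraries alone it was -0.40 (adjusted p = 0.105), and -0.42 with the mouse as a replicate block as well (adjusted p = 0.129). The Pdap1-deficient value passed in the latter fit of its own 6 libraries (-0.31, edgeR adjusted p = 0.00118) and without both libraries of control mouse 1 (-0.31, adjusted p = 0.0370).

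**Figure D2:**
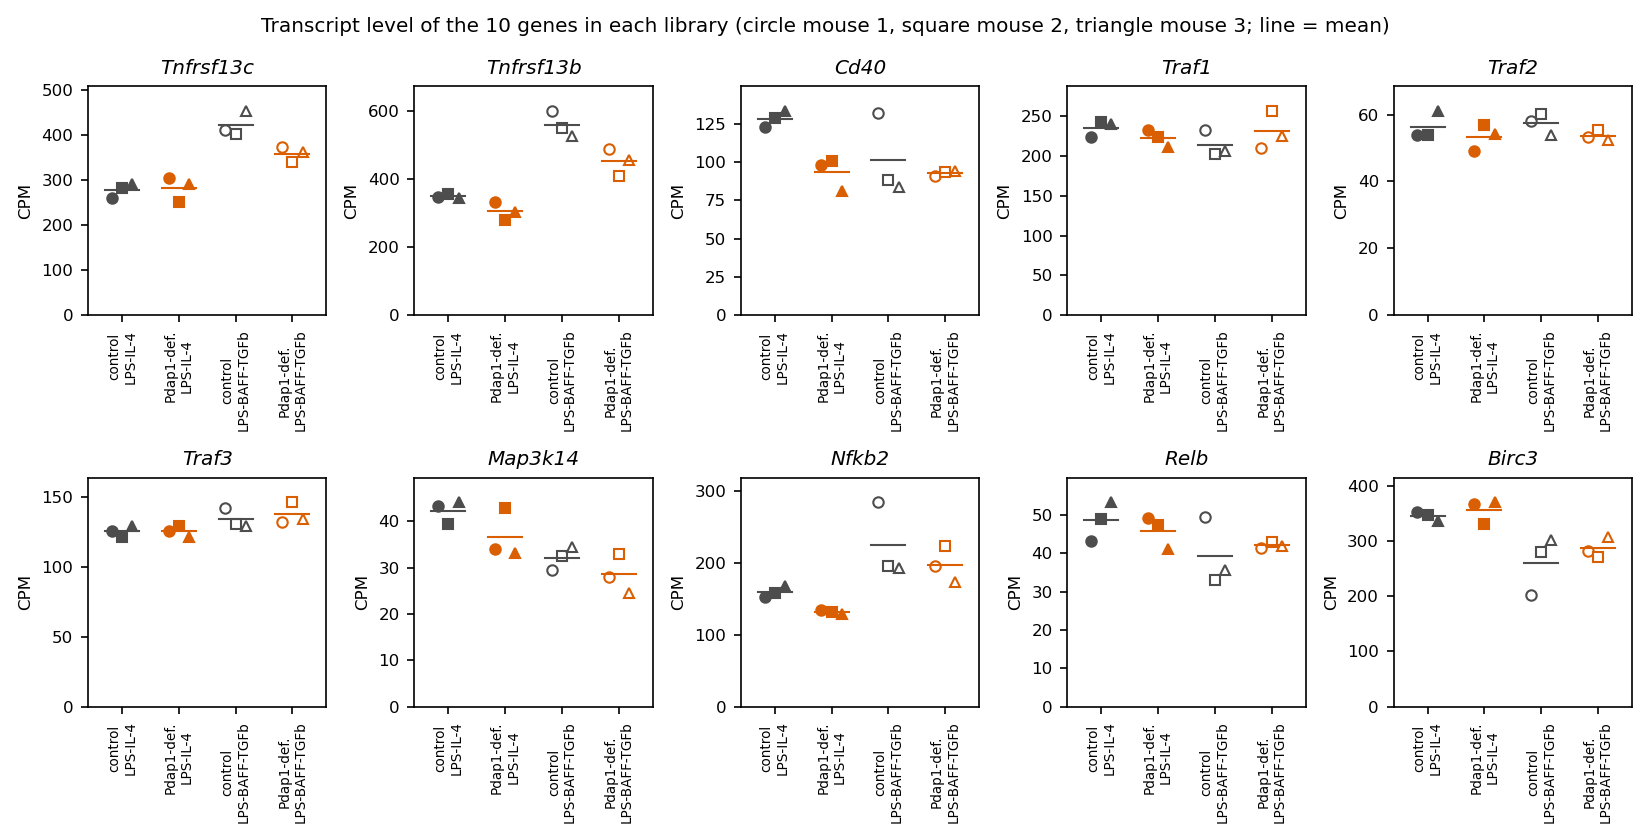
CPM of each of the 10 genes in the 12 libraries, by group, with a separate axis from 0 for each gene (symbols are mice 1 to 3 of a genotype, lines are means of 3). In Tnfrsf13c and Tnfrsf13b all LPS-BAFF-TGFβ libraries lie above all LPS-IL-4 libraries, and the deepest library (open circle, control LPS-BAFF-TGFβ) is the highest in Nfkb2 at 285 CPM and the lowest in Birc3 at 202 CPM.

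Map3k14 (ENSMUSG00000020941, chr11:103219762-103267472, minus strand) encodes NIK, the kinase that starts p100 processing. It was 43.2, 39.4 and 44.2 CPM in control mice with LPS-IL-4 and 29.4, 32.5 and 34.5 CPM with LPS-BAFF-TGFβ, and 34.1, 42.8 and 33.2 CPM against 28.1, 33.0 and 24.6 CPM in Pdap1-deficient mice. It was lower with LPS-BAFF-TGFβ in 6 of 6 mice, without overlap in either genotype, a pattern whose share among all genes was not counted. The log2 fold changes of -0.40 ± 0.13 in control mice and -0.37 ± 0.14 in Pdap1-deficient mice missed the threshold (edgeR adjusted p = 0.0557 and 0.102). With each mouse as a replicate block both passed it, at -0.40 (edgeR adjusted p = 0.0212) and -0.36 (adjusted p = 0.0497). DESeq2 called the control value (-0.42, DESeq2 adjusted p = 0.0352), as did edgeR without both libraries of Pdap1-deficient mouse 2 (-0.41, adjusted p = 0.0172), and the Pdap1-deficient value passed without LPS-BAFF-TGFβ library 2 (-0.48, adjusted p = 0.0491) and with its 6 libraries alone under the block (-0.36, adjusted p = 0.0120). The control value in its own 6 libraries passed without the block (-0.40, adjusted p = 0.0376) and not with it (-0.40, adjusted p = 0.0947). Map3k14 also shares its strand with an overlapping noncoding gene, 1700028N14Rik, which had 5 to 75 counts per library.

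Cd40 (ENSMUSG00000017652, chr2:165055627-165072948, plus strand) encodes the receptor for the T cell signal CD40 ligand. Relb (ENSMUSG00000002983, chr7:19606217-19629438, minus strand) encodes the partner of p52. Cd40 was 123, 129 and 134 CPM in control mice with LPS-IL-4 and 132, 88.3 and 83.5 CPM with LPS-BAFF-TGFβ. Relb was 43.3, 49.0 and 53.4 CPM against 49.4, 33.0 and 35.7 CPM. In both genes control mice 2 and 3 were lower with LPS-BAFF-TGFβ and the deepest library, that of mouse 1, was not. The control log2 fold changes over all libraries were -0.34 ± 0.15 for Cd40 (edgeR adjusted p = 0.147) and -0.29 ± 0.14 for Relb (edgeR adjusted p = 0.192). Without the deepest library they were -0.58 (edgeR adjusted p = 0.00138) and -0.50 (adjusted p = 0.00847). The 10 genes then still gave 4 calls in control mice, Tnfrsf13c and Tnfrsf13b upward and Cd40 and Relb downward, of which 2 were among the 4 above. Of all genes tested, 9.52% were called higher and 8.7% lower without that library.

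In Pdap1-deficient mice, Cd40 was 97.8, 101 and 81.0 CPM with LPS-IL-4 and 91.0, 93.3 and 94.4 CPM with LPS-BAFF-TGFβ, and the groups overlapped. The log2 difference of Cd40 was -0.01, with a 95% interval of -0.33 to 0.32. Relb was 49.2, 47.3 and 41.1 CPM against 41.3, 42.9 and 41.9 CPM, with overlap, and its log2 difference was -0.13 (interval -0.44 to 0.19).

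The TRAF adaptor genes were not called between the stimulations in either genotype. They are Traf1 (ENSMUSG00000026875, chr2:34941750-34961772, minus strand), Traf2 (ENSMUSG00000026942, chr2:25517982-25546940, minus strand) and Traf3 (ENSMUSG00000021277, chr12:111166370-111267153, plus strand). Traf1, which encodes an adaptor that binds TRAF2, ranged from 203 to 257 CPM over the 12 libraries, Traf2 from 49.2 to 61.2 CPM and Traf3 from 121 to 146 CPM. In control mice the log2 differences were -0.14 for Traf1 (95% interval -0.35 to 0.07), 0.03 for Traf2 (-0.18 to 0.24) and 0.10 for Traf3 (-0.09 to 0.28). In Pdap1-deficient mice they were 0.05 (-0.16 to 0.27), 0.01 (-0.21 to 0.22) and 0.13 (-0.05 to 0.32). Traf3 was nominally higher with LPS-BAFF-TGFβ in 6 of 6 mice. In control mouse 3 the difference was only 0.001 on the log2 scale (129.3 against 129.2 CPM). None of the 3 was called under any alternative.

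**Figure D3:**
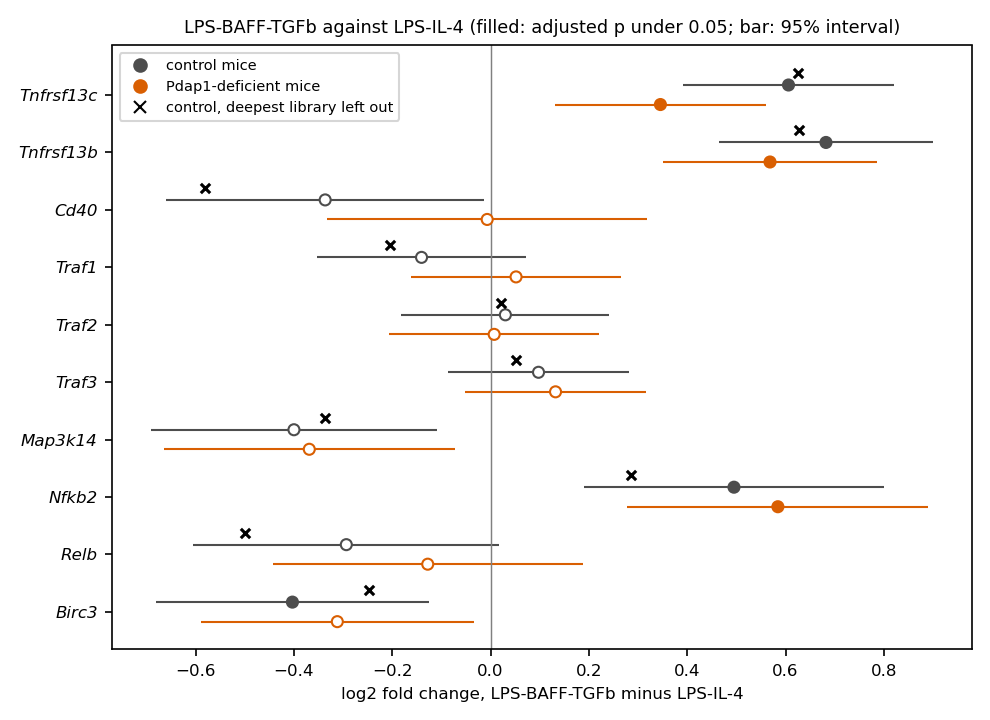
Log2 fold change of the 10 genes between LPS-BAFF-TGFβ and LPS-IL-4 in control and Pdap1-deficient mice, with 95% intervals (filled points, edgeR adjusted p under 0.05), and the control value without the deepest library (crosses). Tnfrsf13c and Tnfrsf13b keep their place without that library, whereas Nfkb2 moves from 0.50 to 0.28 and Cd40 from -0.34 to -0.58.

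The genes around the 10 were described from hand-written lists. Of all genes tested between the stimulations, 9.93% rose and 8.22% fell in control mice, and 6.64% and 6.93% in Pdap1-deficient mice. Of 12 other ligands and receptors, 6 were measured well enough to test between the stimulations, and 1 rose and 1 fell in each genotype. The gene that rose was Ltb, which encodes lymphotoxin β, with log2 fold changes of 2.30 ± 0.35 (edgeR adjusted p = 0.00112) and 2.32 ± 0.36 (adjusted p = 0.00154). In control mice Ltb was 14.2, 14.8 and 16.5 CPM with LPS-IL-4 and 129, 44.8 and 48.2 CPM with LPS-BAFF-TGFβ, and without the deepest library, the 129 CPM, its log2 fold change was 1.62 (edgeR adjusted p = 3.42e-07). Tnfrsf8, which encodes CD30, fell from 81.2 to 90.5 CPM in control LPS-IL-4 cultures to 0.243 to 0.699 CPM with LPS-BAFF-TGFβ (log2 fold change -7.14, edgeR adjusted p = 1.14e-09), and from 91.2 to 123 CPM to 1.88 to 3.10 CPM in Pdap1-deficient ones (-5.61, adjusted p = 6.23e-09). The BAFF gene itself, Tnfsf13b, was at most 0.487 CPM in any library. Tnfrsf17, which encodes the BAFF and APRIL receptor BCMA, was at most 0.243 CPM.

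Of 11 other adaptors, kinases and regulators of the noncanonical pathway tested, 1 rose and 5 fell in control mice, and 0 rose and 5 fell in Pdap1-deficient mice, with list medians of -0.29 in both against 0.03 and -0.004 over all genes. Without the deepest library 0 rose and 4 fell in control mice. Fbxw7, a subunit of the ligase that degrades p100, fell by 0.85 ± 0.09 and 0.63 ± 0.09 on the log2 scale (edgeR adjusted p = 2.11e-05 and 0.000386). Tbk1, a kinase reported to phosphorylate NIK, fell by 0.50 ± 0.10 and 0.78 ± 0.10 (adjusted p = 0.00325 and 0.000125), and the ubiquitin ligase gene Peli1 fell by 0.50 ± 0.13 and 0.70 ± 0.13 (adjusted p = 0.0182 and 0.00262). Birc2, which encodes cIAP1, fell by 0.38 ± 0.09 in control mice (edgeR adjusted p = 0.0119).

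Of 14 canonical subunits and inhibitors tested, 4 rose and 3 fell in each genotype, and 4 rose and 4 fell in control mice without the deepest library. Over all genes 9.93% rose and 8.22% fell in control mice, and 6.64% and 6.93% in Pdap1-deficient mice. Nfkb1, which encodes p105 and p50, fell from 1341, 1343 and 1260.0 CPM to 465, 501 and 509 CPM in control mice, a log2 fold change of -1.42 ± 0.10 (edgeR adjusted p = 2.63e-07), so that it moved opposite to its paralogue Nfkb2. In Pdap1-deficient mice Nfkb1 fell by 0.99 ± 0.10 on the log2 scale (edgeR adjusted p = 9.96e-06). The IκB family genes Nfkbiz and Nfkbia rose in control mice by 1.65 ± 0.13 (edgeR adjusted p = 8.4e-07) and 1.26 ± 0.13 (adjusted p = 9.83e-06). In Pdap1-deficient mice they rose by 1.42 ± 0.13 (edgeR adjusted p = 4.81e-06) and 0.93 ± 0.13 (adjusted p = 0.000211). In this list 8 of the 11 genes with a RefSeq promoter held the κB consensus, against 9.55% of the 27025 genes with one. Among the 8 were Nfkbia and Nfkbie, which rose in control mice, and Tnfaip3, which fell in Pdap1-deficient mice. Nfkb1 and Nfkbiz, which changed in both genotypes, were not among them. Whether a match goes with a change in level was not tested. Of the other ligands and receptors 2 of 11 held it, of the other adaptors and regulators 0 of 9, and of the response genes 3 of 13.

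Of 17 NF-κB response genes of B cells tested, 6 rose and 4 fell in each genotype, and the same counts were found in control mice without the deepest library. The shares over all genes were 9.93% up and 8.22% down in control mice, and 6.64% and 6.93% in Pdap1-deficient mice. Cr2, the complement receptor CD21, rose from 45.9 to 55.6 CPM to 278 to 397 CPM in control mice, with log2 fold changes of 2.76 ± 0.14 and 2.56 ± 0.14 in the genotypes (edgeR adjusted p = 2.68e-08 and 7.6e-08). Icosl, the ligand of the T cell costimulator ICOS, rose by 2.13 ± 0.17 and 1.65 ± 0.17 (adjusted p = 8.75e-07 and 1.25e-05). Bcl2l1, which encodes the survival protein Bcl-xL, fell by 1.55 ± 0.13 and 1.62 ± 0.14 on the log2 scale (adjusted p = 1.99e-06 and 2.61e-06), and the activation marker Cd83 fell by 1.03 ± 0.08 and 0.85 ± 0.08 (adjusted p = 1.04e-06 and 8.88e-06). Markers of other cell types moved with the stimulation beside these genes. The summed level of 7 plasma cell markers was 435 to 483 CPM in control and 520.4 to 633 CPM in Pdap1-deficient cultures with LPS-IL-4, and 190.3 to 246 CPM with LPS-BAFF-TGFβ. Dendritic cell markers moved the other way: the sum of 6 was 22.6 to 33.8 CPM in LPS-IL-4 libraries and 75.6 to 144 CPM in LPS-BAFF-TGFβ libraries. Most of that sum was Flt3, at 62.6 to 130.3 CPM with LPS-BAFF-TGFβ, while Clec9a was at 0 in every library and Siglech and Itgax stayed at or below 1.86 CPM. Of 5 dendritic cell markers tested, 3 were called higher in control mice and 0 lower. They were Flt3, Xcr1 (log2 fold change 1.74, edgeR adjusted p = 0.00352) and Siglech (4.98, adjusted p = 0.00393). In Pdap1-deficient mice 1 was called higher, Flt3, and 0 lower. The part of the plasma cell and dendritic cell markers in the differences above was not tested.

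**Figure D4:**
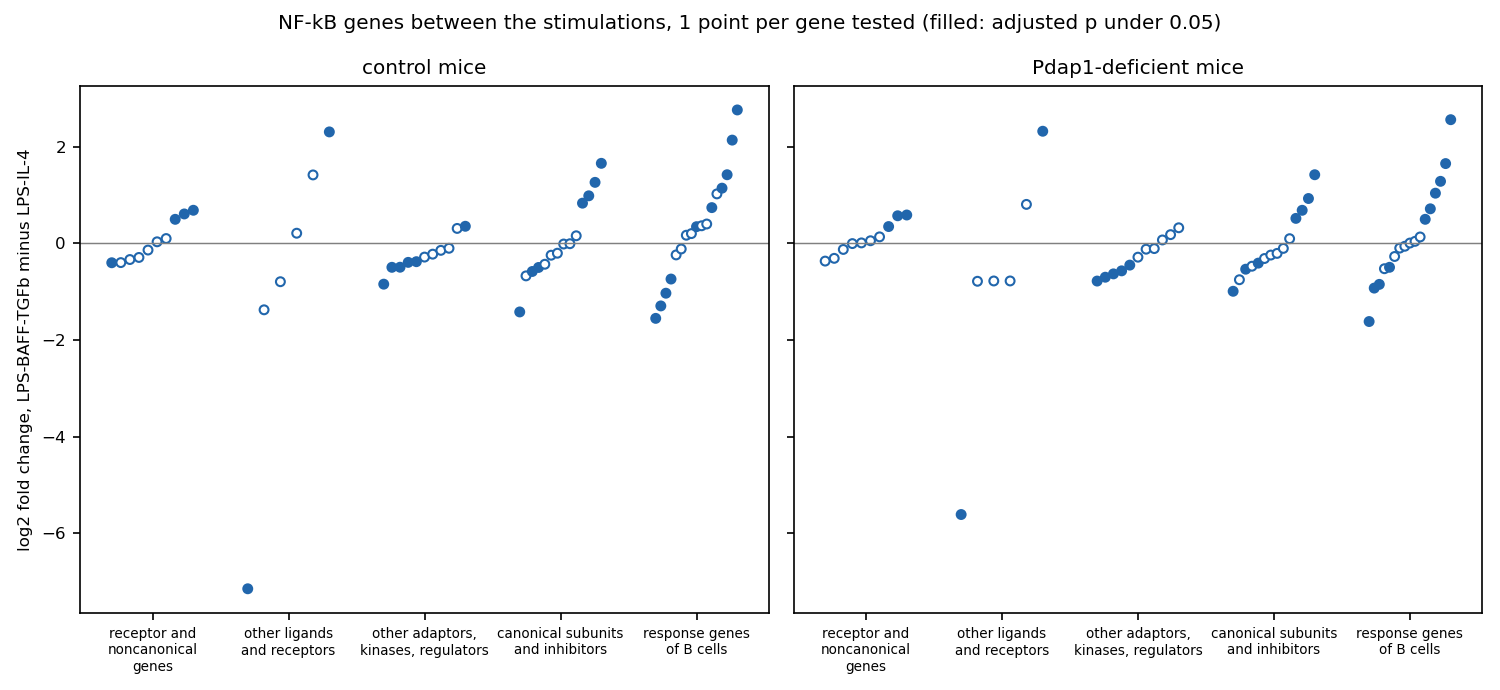
Log2 fold change between LPS-BAFF-TGFβ and LPS-IL-4 for each tested gene of the 10 and of the 4 lists around them, in control (left) and Pdap1-deficient mice (right), with filled points for an edgeR adjusted p under 0.05. The 10 genes lie between -0.40 and 0.68 in control mice, inside the range of the response genes, whose extremes are Bcl2l1 at -1.55 and Cr2 at 2.76.

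The second comparison asked what loss of Pdap1 changed in the 10 genes within each stimulation. With LPS-IL-4 the mRNA of Cd40 was 27.9% lower in Pdap1-deficient cells, and no other gene of the 10 was called. In edgeR's test 1 of the 10 passed downward, where 2.12% of all 15074 genes tested did so, and 0 passed upward, where 2.79% did. DESeq2 also called 0 upward, and no gene of the 10 rose even at an unadjusted p under 0.05. In the other stimulation, LPS-BAFF-TGFβ, 0 of the 10 passed in either direction in edgeR's test, where 0.455% of 14079 genes rose and 0.00710% fell. The deleted gene Pdap1 itself missed the threshold in that test, at a log2 difference of -2.33 ± 0.36 (edgeR adjusted p = 0.0929). The 0 calls therefore do not show that the 10 genes were unchanged with LPS-BAFF-TGFβ. Tnfrsf13b alone of the 10 had an unadjusted p under 0.05 there, and DESeq2 called 0.

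Cd40, in the order of mice 1, 2 and 3, was 123, 129 and 134 CPM in control and 97.8, 101 and 81.0 CPM in Pdap1-deficient LPS-IL-4 cultures. Each Pdap1-deficient library lay below each control library. The log2 fold change was -0.47 ± 0.11 (edgeR adjusted p = 0.0372), with a 95% interval of -0.71 to -0.23. The direction held under 13 of 13 alternatives, with values from -0.52 to -0.39, and 6 of them kept the call. It was lost with the replicate number as a block (adjusted p = 0.0672), without control library 1 (-0.52, adjusted p = 0.124), 2 (-0.48, adjusted p = 0.169) or 3 (-0.46, adjusted p = 0.165) and without Pdap1-deficient library 3 (-0.39, adjusted p = 0.119). With the sex of the mouse as a covariate, which was added after the data were seen, the value was -0.45 (edgeR adjusted p = 0.120).

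With LPS-BAFF-TGFβ the Cd40 values, 132, 88.3 and 83.5 CPM in control and 91.0, 93.3 and 94.4 CPM in Pdap1-deficient cultures, overlapped. The log2 difference was -0.12 (95% interval -0.50 to 0.26), and without the deepest library it was 0.11 (edgeR adjusted p = 0.734).

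Of the 10 genes, 3 had LPS-IL-4 groups that did not overlap, Cd40, Nfkb2 and Tnfrsf13b, each lower in Pdap1-deficient mice, where 31.7% of all genes tested did not overlap in either direction, a like share. The Nfkb2 values with LPS-IL-4 were 152, 159 and 168 CPM in control and 134, 132 and 129.5 CPM in Pdap1-deficient mice, a log2 difference of -0.29 ± 0.09 (edgeR adjusted p = 0.0976). Nfkb2 passed the threshold without Pdap1-deficient library 2 (-0.27, edgeR adjusted p = 0.0280), the LPS-IL-4 library with the highest myeloid markers, where 2 of the 10, Cd40 and Nfkb2, were called lower and 4.49% of all genes were. Tnfrsf13b, at 346, 354 and 344 CPM against 331, 279.8 and 302 CPM, had a log2 difference of -0.20 ± 0.11 (edgeR adjusted p = 0.275).

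With LPS-BAFF-TGFβ, 2 of the 10 genes, Tnfrsf13b and Tnfrsf13c, had groups that did not overlap. This share was like the 18.6% of all genes tested whose groups did not overlap. Tnfrsf13b was 600.5, 549 and 526 CPM in control and 489, 408 and 457 CPM in Pdap1-deficient mice, a log2 difference of -0.30 ± 0.12 (edgeR adjusted p = 0.431). Tnfrsf13c was 411, 401 and 454 CPM against 373, 340.0 and 363 CPM, a log2 difference of -0.23 ± 0.11 (edgeR adjusted p = 0.496). Neither receptor gene was called in this stimulation under any of 14 alternatives. With LPS-IL-4, Tnfrsf13c overlapped between the genotypes, with a log2 difference of 0.02 (95% interval -0.23 to 0.27).

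The other genes of the 10 were not called between the genotypes in either stimulation or under any alternative. Map3k14 differed by -0.21 (95% interval -0.48 to 0.05) with LPS-IL-4 and by -0.16 (-0.51 to 0.18) with LPS-BAFF-TGFβ on the log2 scale. Birc3 differed by 0.04 (-0.19 to 0.26) and 0.14 (-0.21 to 0.50), and Relb by -0.09 (-0.35 to 0.17) and 0.10 (-0.27 to 0.46). The intervals of Traf1, Traf2 and Traf3 lay between -0.33 and 0.39 in both stimulations. In the lists around the 10, 0 genes of the other ligands and receptors, the other adaptors and regulators, the canonical subunits and inhibitors and the response genes were called between the genotypes in edgeR's test, in either stimulation. With an unadjusted p under 0.05 there were 10 genes of these lists in LPS-IL-4 cultures and 3 in the other stimulation, where DESeq2 called 1 and 0. The costimulatory gene Cd86 was the 1, with a log2 difference of 0.78 in edgeR (edgeR adjusted p = 0.0593) and 0.76 in DESeq2 (DESeq2 adjusted p = 0.00227). The smallest edgeR p with LPS-BAFF-TGFβ was that of Tnfrsf8, with a log2 difference of 1.999 (edgeR adjusted p = 0.145). Without Pdap1-deficient LPS-IL-4 library 2, which had the highest myeloid markers, 3 genes of these lists were called in edgeR with LPS-IL-4, Tnfrsf8 at 0.49 (adjusted p = 0.00175), Fbxw7 at -0.26 (adjusted p = 0.0430) and the response gene Irf4 at 0.40 (adjusted p = 0.00228). Calls rose over all genes in that fit, to 1459 of 15226 from 741 of 15074 with every library.

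Some markers of other cells moved with the genotype beside Cd40. Of 7 plasma cell markers, 2 were called higher with LPS-IL-4 in Pdap1-deficient mice and 0 lower. The log2 difference was positive in 4 of the 7. The genotypes did not overlap in 2 markers that were higher and 1 that was lower, where 31.7% of all genes did not overlap. The ranges of the sum of the 7 given above did not overlap between the genotypes. Prdm1, which encodes the plasma cell regulator Blimp-1, was 18.2, 14.1 and 19.98 CPM in control and 50.6, 65.1 and 71.2 CPM in Pdap1-deficient mice, a log2 fold change of 1.82 ± 0.16 (edgeR adjusted p = 0.000323). Ell2, an elongation factor gene, rose by 0.48 ± 0.09 (edgeR adjusted p = 0.0208). With LPS-BAFF-TGFβ 0 of the 7 were called in edgeR or DESeq2, and 1 had an unadjusted edgeR p under 0.05. The part of the plasma cell and myeloid markers in the differences of the 10 genes was not tested, beyond the values without Pdap1-deficient mouse 2.

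**Figure D5:**
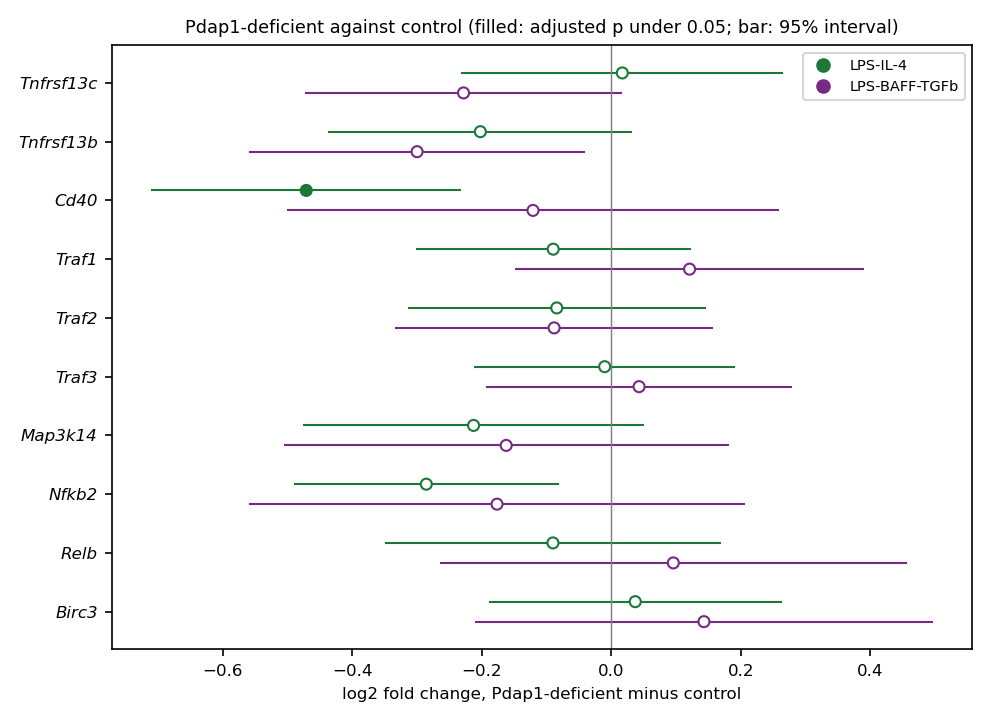
Log2 fold change of the 10 genes between Pdap1-deficient and control mice in each of the 2 stimulations, with 95% intervals (filled points, edgeR adjusted p under 0.05). Cd40 with LPS-IL-4, at -0.47, is the one filled point.

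The third comparison tested whether the effect of Pdap1 loss differed between the stimulations. In edgeR's genotype by stimulation term 0 of the 10 genes passed, as did 0% of all 15794 genes tested. None of the 10 had an unadjusted p under 0.05, and DESeq2 called 0 of them. Over all genes 755 had an unadjusted p under 0.05 in edgeR, and DESeq2 called 6. The difference of the Cd40 effects was 0.33 on the log2 scale (95% interval -0.13 to 0.79), and that of the Tnfrsf13c effects was -0.26 (-0.56 to 0.04). Cd40, called in 1 stimulation and not in the other, was thus not shown to differ between them. For Birc3, called between the stimulations in control mice only, the term was 0.09 (-0.30 to 0.48).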

How the data were processed

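RNA-seq of 12 libraries (6 mice, 3 per genotype, 2 stimulations) was analysed. As deposited by the authors, the table used holds counts per Ensembl gene without normalization, from stranded libraries (rRNA-depleted per the study, an mRNA kit per the labels) mapped to GRCm38. The submitters' processing notes name Trim Galore 0.6.1, STAR 2.6, HTSeq 0.9.1 and DESeq2. A second table, the same counts divided by 1 size factor per library, was not used.

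Symbols, exon lengths and overlaps came from GENCODE M21, which matched each of the 10 genes. Genes were tested in R 4.3.3 with edgeR 4.0.16 (robust quasi-likelihood fits), after filterByExpr and TMM, with Benjamini-Hochberg adjustment over all genes tested, at 0.05. All adjusted p values are from edgeR unless DESeq2 (1.42.0) is named. Genotypes were compared over the 6 libraries of a stimulation, and stimulations and the genotype by stimulation term over all 12. No block for the mouse was used in these main fits. All 10 genes passed the low-count filter in each fit. Intervals use edgeR's moderated degrees of freedom. The median coefficient of biological variation over all genes tested was 17.2% with LPS-IL-4, 20.9% with LPS-BAFF-TGFβ and 19.2% over the 12 libraries. Within each group, no library was a copy of another.

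Mouse numbers come from the series description and pair the cultures of a mouse. Deviations of paired libraries correlated at -0.181, 0.341 and -0.023 in control and 0.579, 0.622 and 0.293 in Pdap1-deficient mice. Genotypes share only the number.

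Named are the 10 genes, Pdap1, and up to 4 called genes per list and comparison, with the smallest adjusted p, or 2 where none passed. Genes most like Nfkb2 or the receptor genes over the libraries were also to be named and are not reported here, since the libraries fall into clusters by stimulation. Cd79a, Pax5 and ligand, receptor and dendritic cell genes given for their low level, and Flt3, were named after their values were seen. The 10 genes and the lists were chosen with earlier results of these data known. Alternatives were DESeq2, its size factors, other filters, thinning of the deepest library, each library left out, blocks and other sets of libraries. The sex covariate and leaving out both libraries of a mouse were added after the data were seen. The driver allele of the Cre is not reported here. The steps were tested on simulated data. Python 3.11.15, pandas 2.3.3 and matplotlib 3.10.9 were used.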

Additional observations from a re-analysis of the deposited data

How the results depend on the processing

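With 3 mice per group, calls over all genes moved more with some single libraries left out than with the deepest library thinned. Thinning was not run for the genotype test with LPS-IL-4. Of 790 values of single genes under alternatives, 743 kept their direction where called and their side of the threshold, 32 lost a call, 15 gained one and 0 reversed. The cause was not tested. With LPS-IL-4 the genotype test called 1 of the 10 genes, but 0 with the replicate block, with all 12 libraries in 1 fit or with sex as a covariate, and 0 to 2 with a library left out. Over all genes it called 741, against 1217 with DESeq2, 1694 without a filter, 173 with sex as a covariate and 69 to 1759 with a library left out. With LPS-BAFF-TGFβ it called 65, against 172, 257 and 42 in the same order, 133 with all 12 libraries, 19 to 116 with a library left out, and 0 of the 10 throughout. Between stimulations, the 10 genes gave 4 calls in control mice, 2 with the replicate block on the 6 control libraries and 2 to 4 with a library left out (all genes 2868, 1906 to 2943). In Pdap1-deficient mice they gave 3, 5 with that block on the 6 Pdap1-deficient libraries (all genes 2144, then 3854), 1 without mouse 2, and 1 to 3 with a library left out (1407 to 2131). The genotype by stimulation term called 0 genes, 6 with DESeq2, 1 without a filter and 0 to 1 with a library left out. A replicate block changed no other call of the 10 genes beside those named with their results.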
